A study of Mus musculus with 14 samples.

Results

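The comparison described here sets tumour-bearing mice, whichever of 2 tumours they carried, against mice with a Matrigel implant alone. Bone marrow cells were taken from the hosts and sorted for the surface antigen Sca1 and against the receptor cKit, and each sorted sample was measured on 1 mouse Affymetrix array. Members were chosen by sample title: the 5 arrays titled Instigator and the 5 titled Non-instigator form a tumour side of 10 arrays, and the 4 arrays titled Matrigel form the other side, which is all 14 arrays of the series. Instigator mice carried BPLER tumours, grown from transformed human mammary epithelial cells, and Non-instigator mice carried PC3 tumours, grown from a human prostate carcinoma line; the labels describe both as matched in size. For Instigator 5 the labels conflict, since its description names the PC3 tumour while its title and source name the BPLER one. This does not touch the pooled tumour side, but every value given for Instigator or Non-instigator arrays alone keeps it as Instigator. Matrigel is a basement membrane extract used to carry implanted cells. The sorted population and the array protocol were shared by all 3 groups. Host strain, sex and age and the length of tumour growth are not stated in the labels. Nor do the labels say that each array is a separate animal or a pool, so every p-value below reflects the spread among these samples, and that spread may be technical.

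Tumours grown at one site can act on the marrow through circulating factors, and in systemic instigation an aggressive tumour makes an otherwise slow tumour elsewhere grow by way of marrow cells. Marrow cells with Sca1 and without cKit lie outside the classical stem cell gate and include lymphoid cells, dendritic cells and myeloid cells, since Sca1 is also carried by many mature lymphocytes. A pooled contrast of this kind asks which transcripts differ between hosts of any tumour and hosts of none, as distinct from the contrast between the tumours. Ly6a, the gene of Sca1, is not analysed here, because no probe set carries its name alone. Kit had 7.47 ± 0.35 in tumour arrays and 7.52 ± 0.37 in Matrigel arrays (log2 of the deposited intensity, mean ± SD, n = 10 and 4). On this brighter probe set the receptor used to exclude cells differed by less than its spread. Its dimmer probe set had 4.86 ± 0.13 in tumour arrays and 5.15 ± 0.33 in Matrigel arrays. That difference of -0.29 exceeds the tumour SD but not the Matrigel SD. All levels and differences below are on that log2 scale, where a difference of 1 is a doubling, and a gene stands for its brightest probe set unless another is named.

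Median intensity per array ran from 119 to 145, with Instigator 4 lowest and Matrigel 3 highest. Instigator 4 also had a 5′ minus 3′ difference of -3.41 between the beta-actin control probe sets, a measure used to judge RNA integrity, against -0.81 to -0.51 on the other 13 arrays. The first principal component placed Instigator 4 apart and the second placed Matrigel 3 apart. Results are therefore given with all arrays and without these 2, which leaves 9 tumour arrays and 3 Matrigel arrays. The table holds no detection calls, so whether a gene was above background is not known.

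Across all genes the marrow of tumour hosts was close to that of Matrigel hosts. With limma, 0 of 22626 probe sets (0%) passed an adjusted p of 0.05, and the smallest Benjamini-Hochberg adjusted p was 0.772. Before adjustment 1277 probe sets (5.64%) had a p under 0.05, 374 higher and 903 lower in tumour arrays, where a rate of 0.05 gives 1131. Counted by gene, 254 of 12393 were higher (2.05%) and 368 were lower (2.97%), 622 in all against 620 at that rate. The median gene differed by -0.03, and 42% of genes were higher in tumour arrays. The split by direction moved with scaling: 721 probe sets were higher and 630 lower after quantile normalization, and 903 were higher and 430 lower after each array was centred on its median. Since no gene passed the adjusted test with all arrays, the differences below are descriptions of these samples, with an adjusted p of 0.772 or above each.

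Complete separation of the sides was rare. On 47 probe sets (0.208%) the 10 tumour arrays did not overlap the 4 Matrigel arrays, 21 with tumour arrays above and 26 with tumour arrays below. By brightest probe set this came to 15 genes above (0.121%) and 6 genes below (0.0484%). A random split of the arrays into 10 and 4 separates the sides fully, in either direction, at a rate of 0.001998. The 47 probe sets are near the number that such a split gives. Without Instigator 4 and Matrigel 3, 676 probe sets had an unadjusted p under 0.05 (2.99%, 313 higher and 363 lower). In that fit 1 probe set passed the adjusted test (0.00442%), a second probe set of the desaturase gene Scd2. On these 12 arrays there were 120 separated probe sets (0.53%), with 48 genes above (0.387%) and 18 below (0.145%). With fewer arrays a random split separates the sides more often, so 120 beside 47 does not show more separation. Of the 622 genes at an unadjusted p under 0.05 with all arrays, 146 kept it in the same direction without the 2 arrays, 83 of the 254 higher genes and 63 of the 368 lower ones.

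Slc25a20 and Scd2, both genes of lipid handling, were among the 12 genes with the smallest p in their direction, Slc25a20 above Matrigel and Scd2 below it, and Cpt1a is given beside them as the step before Slc25a20. Long-chain fatty acids enter mitochondria through the carnitine shuttle: Cpt1a, carnitine palmitoyltransferase of the outer membrane, joins them to carnitine, and Slc25a20, the carnitine-acylcarnitine translocase, carries the product across the inner membrane. Scd2 encodes a stearoyl-CoA desaturase, which puts a double bond into newly made fatty acids. The promoters of the shuttle genes are printed because the 2 genes lay above Matrigel together, and each runs from 250 bases before to 50 bases after the annotated start in RefSeq on GRCm38.p6, 5′ to 3′. Capitals mark matches on either strand to the CCAAT box and to 3 other motifs, with no overlap between matches. The GC box was searched as CCCGCC, the nuclear receptor half-site as AGGTCA and the E2F-type site as TTTNNCGC. The first 2 lines of the 3 below are the shuttle genes, at chr9:108661886-108662185 and chr19:3323051-3323350, and the third is Cdt1, a replication licensing gene described further on, at chr8:122567765-122568064; all lie on the plus strand.
Slc25a20: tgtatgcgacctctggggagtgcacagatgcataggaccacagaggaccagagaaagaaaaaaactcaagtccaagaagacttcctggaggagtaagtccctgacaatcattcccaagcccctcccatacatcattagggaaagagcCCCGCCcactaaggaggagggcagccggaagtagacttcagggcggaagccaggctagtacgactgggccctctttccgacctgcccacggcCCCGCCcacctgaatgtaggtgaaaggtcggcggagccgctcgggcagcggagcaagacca
Cpt1a: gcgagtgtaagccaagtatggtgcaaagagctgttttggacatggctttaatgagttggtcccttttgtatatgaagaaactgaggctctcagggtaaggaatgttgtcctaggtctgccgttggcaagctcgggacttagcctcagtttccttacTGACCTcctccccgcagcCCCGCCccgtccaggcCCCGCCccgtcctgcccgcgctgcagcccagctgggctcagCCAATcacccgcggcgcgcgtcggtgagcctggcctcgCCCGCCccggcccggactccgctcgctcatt
Cdt1: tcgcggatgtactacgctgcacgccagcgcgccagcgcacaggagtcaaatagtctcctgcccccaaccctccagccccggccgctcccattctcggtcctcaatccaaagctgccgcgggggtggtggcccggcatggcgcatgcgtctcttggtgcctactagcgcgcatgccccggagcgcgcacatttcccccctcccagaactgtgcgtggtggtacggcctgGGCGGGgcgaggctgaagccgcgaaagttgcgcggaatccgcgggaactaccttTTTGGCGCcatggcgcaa
The Slc25a20 window held 2 GC boxes and the Cpt1a window 3, with a CCAAT box and a half-site. GC boxes are common: of 27025 mouse promoter windows, 1 per gene, 35.5% hold one, 37.9% a CCAAT box, 16% the half-site and 5.27% the E2F-type site. The GC box and the half-site were added to the search after the values were seen, and a match is no evidence of binding.

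Slc25a20 had the smallest unadjusted p of any probe set. Its level ran from 9.83 through a median of 9.89 to 10.04 on tumour arrays, and was 9.66, 9.38, 9.71 and 9.40 on Matrigel arrays 1 to 4. All 10 tumour arrays lay above the highest Matrigel array, and the tumour arrays spread less than the Matrigel ones. The means were 9.89 ± 0.06 on tumour arrays and 9.54 ± 0.18 on Matrigel arrays (SD, n = 10 and 4), a difference of 0.36 with a standard error of 0.07 and a 95% interval of 0.20 to 0.51 (limma, unadjusted p = 0.000155, adjusted p = 0.772), or 1.28-fold. Instigator arrays stood 0.36 and Non-instigator arrays 0.35 above Matrigel, and without Instigator 4 and Matrigel 3 the pooled difference was 0.42. A second probe set of the gene differed by 0.21 in the same direction.

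Cpt1a on its brightest probe set ranged from 9.38 through a median of 10.02 to 10.99 on tumour arrays, and was 9.56, 9.50, 8.06 and 9.45 on Matrigel arrays 1 to 4. On that probe set 9 of the 10 tumour arrays exceeded every Matrigel array, and the 2 extremes were the 2 arrays that stand apart. The difference of 0.90 (standard error 0.26, limma adjusted p = 0.772) was 0.43 without those arrays, over 1.5 times smaller. The dimmest of its 3 probe sets gave 7.43, 7.69 and 8.67 as lowest, median and highest on tumour arrays, and 7.18, 6.83, 7.71 and 7.01 on Matrigel arrays 1 to 4. There Matrigel 3 was the highest Matrigel array rather than the lowest, and the difference was 0.59 (standard error 0.19) with all arrays and 0.66 without the 2. The third probe set differed by 0.79 with all arrays and 0.47 without the 2. When limma weighted arrays by their quality, Slc25a20 (adjusted p = 0.0406) and the dimmest Cpt1a probe set (adjusted p = 0.0425) were the 2 probe sets called, with differences of 0.45 and 0.70.

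**Figure D1:**
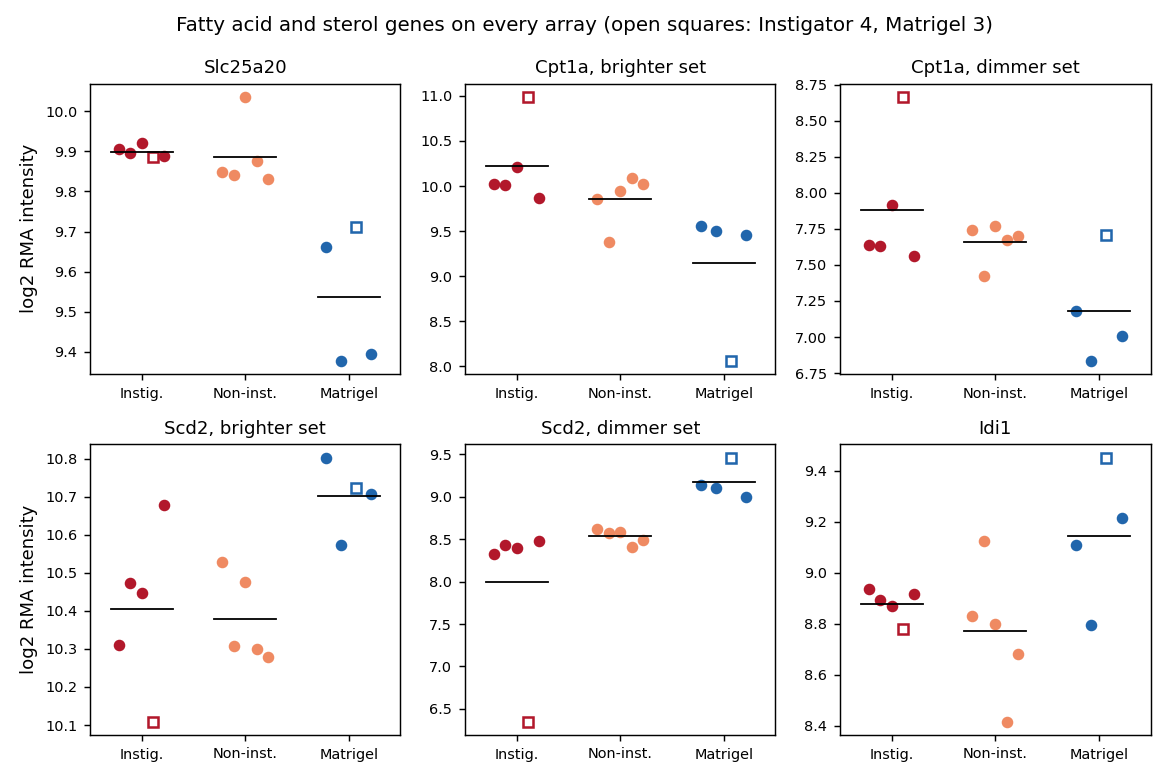
Log2 RMA intensity of carnitine shuttle and lipid synthesis genes on each Instigator, Non-instigator and Matrigel array, 1 point per array, with a line at each group's mean and open squares for Instigator 4 and Matrigel 3. Every tumour array lies above every Matrigel array for Slc25a20 and below every one for the dimmer Scd2 probe set, and the vertical axes differ between panels.

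Scd2 lay below Matrigel on 2 of its 3 probe sets with or without the arrays that stand apart. The brightest read from 10.11 through 10.38 to 10.68 on tumour arrays, and 10.80, 10.57, 10.72 and 10.71 on Matrigel arrays 1 to 4, and 9 of the 10 tumour arrays were below the lowest Matrigel array. Its difference was -0.31 (standard error 0.09, limma adjusted p = 0.772). The second probe set, singled out after its values were seen, read from 6.35 through 8.46 to 8.61 on tumour arrays, and 9.13, 9.11, 9.46 and 8.99 on Matrigel arrays 1 to 4. The sides did not overlap, and Instigator 4 was far below the other tumour arrays. The difference was -0.91 (standard error 0.31, adjusted p = 0.772) with all arrays. Without Instigator 4 and Matrigel 3, Scd2 on this probe set fell by 0.60 in tumour arrays (limma adjusted p = 0.0139), and without Instigator 4 alone by 0.70 (adjusted p = 0.0113). The call on this probe set thus turned on Instigator 4, the array with the large 5′ to 3′ gap in actin, whose part in it was not tested further. The third probe set differed by -0.29 with all arrays, with 1 of 10 tumour arrays below Matrigel, and by 0.12 without Instigator 4 and Matrigel 3.

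The lists around these genes showed no common direction. Of 20 measured genes of fatty acid oxidation, 10 were higher and 10 lower in tumour arrays, with a median of 0.01, beside 42% of all genes higher. The only members at an unadjusted p under 0.05 were Slc25a20 and Cpt1a. Without the 2 arrays 17 of the 20 were higher, with a median of 0.09, where 56.8% of all genes were higher with a median of 0.01. Etfb, a subunit of the flavoprotein that takes electrons from the oxidation steps, differed by -0.26 with all arrays and 0.01 without the 2. Of 18 genes of sterol and fatty acid synthesis, 6 were higher and 12 lower, with a median of -0.03, and the 2 at an unadjusted p under 0.05 were both lower. They were Scd2 and Idi1, which isomerises isopentenyl diphosphate on the way to cholesterol, at 8.82 ± 0.19 in tumour arrays and 9.14 ± 0.27 in Matrigel arrays, with a difference of -0.32 and -0.21 without the 2. Another Idi1 probe set differed by -0.04 with all arrays and -0.21 without the 2. Scd1, the desaturase paralog of Scd2, differed by -0.38, with 4 of 10 tumour arrays below the lowest Matrigel array.

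Of the 15 genes whose tumour arrays all lay above Matrigel, 11 are named here, and they are described by what each is known to do. Zyx encodes zyxin, a focal adhesion protein, and read from 8.94 through 9.06 to 9.61 on tumour arrays, and 8.75, 8.87, 8.82 and 8.56 on Matrigel arrays 1 to 4. Every tumour array exceeded every Matrigel array, with Instigator 4 highest. The difference was 0.37 (standard error 0.11) and 0.34 without the 2 arrays. Tln1, which encodes the integrin activator talin, ranged from 10.04 through 10.14 to 10.91 on tumour arrays, and was 10.01, 9.84, 9.94 and 9.82 on Matrigel arrays 1 to 4, separated by a gap of 0.03. Lasp1, an actin-binding adaptor, differed by 0.44, with 9 of 10 tumour arrays above Matrigel. Its other 8 probe sets ran from -0.18 to 0.57, so the probe sets of Lasp1 disagree.

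Lyst encodes a regulator of lysosome and granule size, and its loss gives the beige mouse. It read from 8.89 through 9.12 to 9.50 on tumour arrays, and 8.83, 8.84, 8.59 and 8.57 on Matrigel arrays 1 to 4. All tumour arrays were above all Matrigel arrays by brightest probe set (difference 0.42, standard error 0.11), while its other 2 probe sets differed by 0.00 and -0.05. Chmp4b, a subunit of the membrane-cutting ESCRT-III complex, differed by 0.47 with all arrays and 0.29 without the 2, and again the sides did not overlap. Ttc7b, which helps hold the kinase that makes phosphatidylinositol 4-phosphate at the plasma membrane, differed by 0.77 and by 0.39 without the 2 arrays, a drop of over 1.5 times. Anxa6, a calcium-dependent membrane-binding annexin, had 10.06 ± 0.14 in tumour arrays and 9.77 ± 0.04 in Matrigel arrays, and Vps9d1, a VPS9 domain protein, 7.78 ± 0.19 in tumour arrays and 7.46 ± 0.29 in Matrigel arrays. The Vps9d1 difference was 0.32 with all arrays and 0.12 without the 2. For most of these genes a dimmer probe set showed no such difference, as in Tln1 at -0.02, Chmp4b at 0.01 and Ttc7b at 0.00. Dimmer sets of Anxa6 differed by 0.02 and -0.17, and those of Vps9d1 by -0.21 and -0.03, so some pointed the other way. That of Zyx stood at 0.18.

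The remaining separated genes with higher levels included 3 of metabolism and ion channels. Gpd2, the mitochondrial glycerol-3-phosphate dehydrogenase, had 9.12 ± 0.05 in tumour arrays and 8.92 ± 0.11 in Matrigel arrays. Thtpa, a thiamine triphosphatase, had 8.41 ± 0.14 in tumour arrays and 8.09 ± 0.09 in Matrigel arrays. Kcnab2, a potassium channel beta subunit, had 8.42 ± 0.09 in tumour arrays and 8.15 ± 0.10 in Matrigel arrays. A dimmer probe set differed by -0.06 for Thtpa and -0.10 for Kcnab2 with all arrays, and by 0.13 and 0.07 without the 2. Downward separation was seen mainly at low signal. Xcr1, the chemokine receptor of cross-presenting dendritic cells, had 4.88, 5.03 and 5.07 as lowest, median and highest on tumour arrays, and 5.12, 5.17, 5.44 and 5.27 on Matrigel arrays 1 to 4. Rfx3, Krtap6-2 and Hgd likewise had means at or below 5.25 on both sides, so these separations rest on small differences among dim probe sets. Without the 2 arrays Krtap6-2 differed by -0.12 rather than -0.24, and Hgd by -0.08 rather than -0.25. Anp32e, a chaperone of the histone variant H2A.Z, was bright and separated by little, with 11.73 ± 0.10 in tumour arrays and 11.88 ± 0.05 in Matrigel arrays. Gadd45b, a stress-response gene, was lower by 0.51 with all arrays and by 0.16 without the 2, with Instigator 4 lowest and Matrigel 3 highest.

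**Figure D2:**
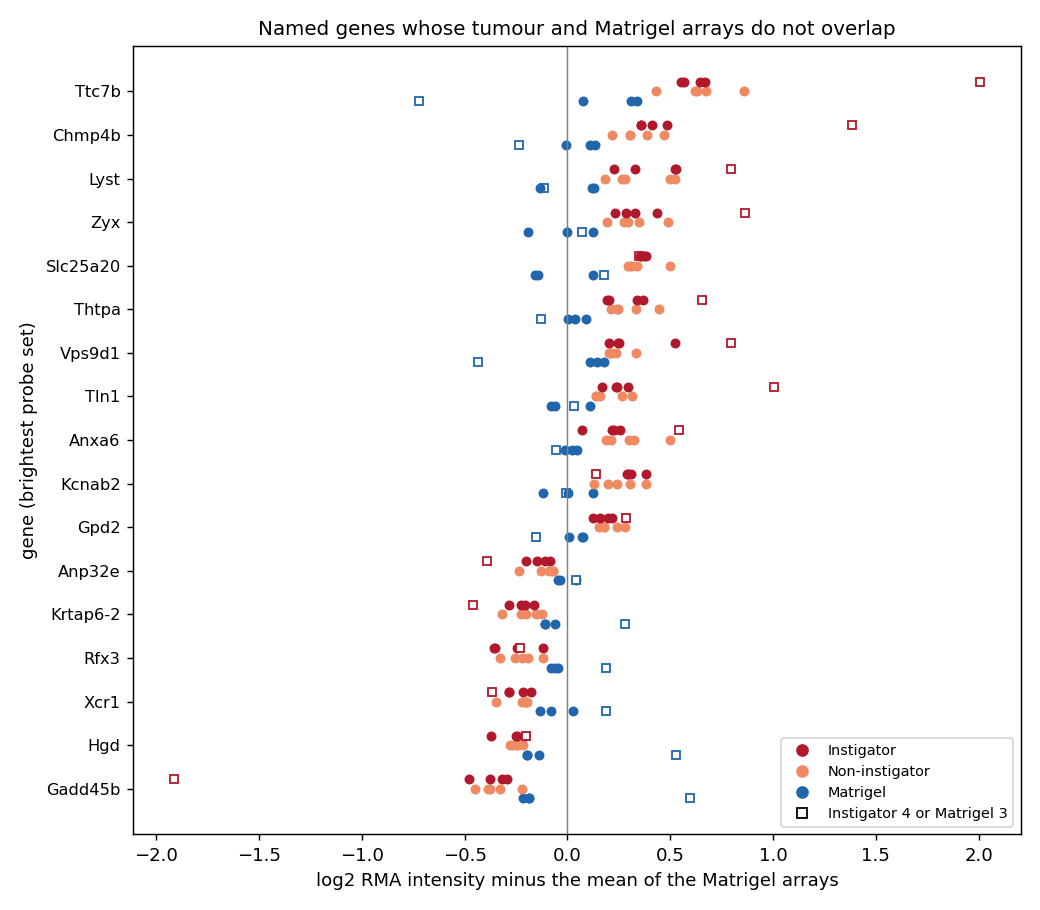
Log2 RMA intensity of each array minus the mean of the 4 Matrigel arrays for the 17 named genes whose tumour and Matrigel arrays do not overlap, ordered by difference. Instigator points are drawn above Non-instigator and Matrigel points in each row, and open squares are Instigator 4 and Matrigel 3, which set the far points for Ttc7b, Gadd45b and Chmp4b.

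Further genes with small p-values had sides that overlapped. Stfa3, a stefin cysteine protease inhibitor of neutrophils from a family with close paralogs, read from 8.90 through 9.29 to 10.26 on tumour arrays, and 9.26, 8.58, 7.64 and 7.69 on Matrigel arrays 1 to 4. It overlapped in Matrigel 1, and differed by 1.09 (standard error 0.29) or 2.13-fold, and by 0.77 without the 2 arrays. Il1r2, the decoy receptor for interleukin 1, read from 6.91 through 7.42 to 8.0 on tumour arrays, and 6.56, 7.03, 6.71 and 6.90 on Matrigel arrays 1 to 4. All but 1 tumour array lay above the Matrigel range, and the difference was 0.65 (standard error 0.17) and 0.56 without the 2. Arap3 differed by 0.58 on one probe set and 0.06 on the other. Ulk1, the kinase that starts autophagy, differed by 0.41 with all arrays and 0.26 without the 2, and by -0.22 on its dimmer probe set. Nucb1, a calcium-binding Golgi protein, differed by 0.44.

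Ifi202b, an interferon-inducible DNA-binding protein of the p200 family, lay well below its Matrigel level. It read from 9.50 through 9.91 to 10.82 on tumour arrays, and 10.94, 10.85, 11.66 and 10.47 on Matrigel arrays 1 to 4, with 8 of 10 tumour arrays below the lowest Matrigel array. The difference was -0.97 (standard error 0.24), or 0.51 of the Matrigel level, and -0.81 without the 2 arrays, and family members share sequence. Sox4, a transcription factor of early lymphoid cells, read from 8.26 through 8.78 to 9.02 on tumour arrays, and 9.43, 9.42, 8.93 and 9.05 on Matrigel arrays 1 to 4. All but 1 tumour array were below Matrigel, and the difference was -0.49 with all arrays and -0.57 without the 2, although its other 5 probe sets ran from -0.60 to 0.10. Vhl, the ubiquitin ligase subunit that marks hypoxia-inducible factors for destruction, was dim, with 5.45 ± 0.14 in tumour arrays and 5.89 ± 0.21 in Matrigel arrays. Zeb2, a repressor with roles in dendritic and NK cells, had 5.35 ± 0.22 in tumour arrays and 5.87 ± 0.37 in Matrigel arrays, a difference of -0.52 and -0.31 without the 2. Ifi30, the lysosomal thiol reductase of antigen processing, differed by -0.27 and Prcp, a lysosomal carboxypeptidase, by -0.48, each with 9 of 10 tumour arrays below Matrigel.

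Leaving out the 2 arrays brought other genes forward. Reps1, an endocytosis adaptor, differed by 0.11 with all arrays and 0.26 without the 2. Sinhcaf, a subunit of the Sin3 histone deacetylase complex, differed by -0.19 and -0.26. Net1 differed by -0.48 and -0.46, and Prps2, which makes the precursor of nucleotides, by -0.20 both times. No one of these passed the adjusted test in either fit.

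Among cell type lists, markers of late neutrophil granules and of basophils, mast cells and eosinophils lay above Matrigel. Every list stands beside 42% of all genes higher, with 2.05% higher and 2.97% lower at an unadjusted p under 0.05. Without the 2 arrays 56.8% of all genes were higher, with 205 of 12393 higher and 119 lower at that threshold. Of 17 late granule genes 16 were higher, with a median of 0.19 beside -0.03 for all genes, and 7 were at an unadjusted p under 0.05, all higher. Mmp8, neutrophil collagenase, read from 9.73 through 10.03 to 10.35 on tumour arrays, and 9.91, 9.91, 9.35 and 9.42 on Matrigel arrays 1 to 4. The sides overlapped, with 8 of 10 tumour arrays above Matrigel, and the difference was 0.40 (standard error 0.12). Ltf, lactoferrin, differed by 0.38 and by 0.16 without the 2 arrays, and Mmp9, gelatinase B, by 0.35 and 0.18. Without the 2 arrays 16 of 17 were higher, with a median of 0.13, and 1 was at an unadjusted p under 0.05. Primary granule genes, made earlier in the lineage, gave 7 higher and 3 lower of 10, with a median of 0.10 and none at an unadjusted p under 0.05.

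The median of the basophil, mast cell and eosinophil list was 0.25, with 15 of 17 genes higher, and 3 were at an unadjusted p under 0.05. Mcpt8, the basophil protease, had 9.86 ± 0.45 in tumour arrays and 9.33 ± 0.28 in Matrigel arrays, a difference of 0.53 and 0.45 without the 2 arrays. Alox15, the 15-lipoxygenase of eosinophils and macrophages, differed by 0.77, and Cpa3, the mast cell carboxypeptidase, by 0.62, and these were 0.38 and 0.22 without the 2. The list's mean level was highest in Instigator 4 and lowest in Matrigel 3, and without them its median was 0.10 with 12 of 17 higher, over 1.5 times smaller. The part of the 5′ to 3′ gap of Instigator 4 in this was not tested. Monocyte and macrophage genes gave 8 higher and 9 lower of 17. Hmox1, heme oxygenase of iron-recycling macrophages, differed by -0.50 and Spic, the transcription factor of red pulp macrophages, by -0.24. Another Spic probe set differed by -0.62, and by -0.32 without the 2 arrays.

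B lineage, plasma cell and dendritic cell lists had medians below Matrigel and below that of all genes, of which 42% were higher. Among all genes 2.97% were lower at an unadjusted p under 0.05. Of 20 B lineage genes 17 were lower, with a median of -0.33, and the same count was lower without the 2 arrays, with a median of -0.31. Yet 1 of them was at an unadjusted p under 0.05, and the mean level of the list overlapped, from 7.87 through 8.81 to 9.36 on tumour arrays against 8.67 to 9.20 on Matrigel arrays. Igll1, a surrogate light chain of precursor B cells, differed by -0.57 with all arrays and -0.30 without the 2, and Ms4a1, which encodes CD20, by -0.55 and -0.47. In a bulk sample of sorted cells, fewer cells of a type and less RNA per cell cannot be told apart. Plasma cell genes gave 12 lower of 14, with a median of -0.21 and -0.07 without the 2. The 9 measured genes of MHC class II presentation were all lower, with a median of -0.15 and none at an unadjusted p under 0.05. Cd74, the invariant chain, had 11.53 ± 0.55 in tumour arrays and 12.03 ± 0.20 in Matrigel arrays.

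Of 14 conventional dendritic cell genes 11 were lower, with a median of -0.29, and 3 were at an unadjusted p under 0.05, all lower. Without the 2 arrays 12 were lower, with a smaller median of -0.16, and 2 were at that threshold, both lower. In that setting 56.8% of all genes were higher. Cd209a, a lectin of monocyte-derived and type 2 dendritic cells, read from 5.27 through 6.32 to 7.41 on tumour arrays, and 6.87, 7.85, 6.90 and 6.69 on Matrigel arrays 1 to 4. The sides overlapped, with 8 of 10 tumour arrays below Matrigel, and the difference was -0.81 (standard error 0.32) and -0.82 without the 2 arrays. Cd83, Irf4 and Ccr7, which mature dendritic cells express, differed by -0.49, -0.43 and -0.32, and each had 2 or 3 tumour arrays above Matrigel. Irf4 is also on the plasma cell list and Ccr7 on the T cell list, so neither is particular to dendritic cells. Ccr7 differed by -0.14 without the 2 arrays. Of 15 plasmacytoid dendritic cell genes 5 were higher and 10 lower, beside 42% of all genes higher. Their median was -0.25, and 5 were at an unadjusted p under 0.05, all lower, beside 2.97% of all genes. Without the 2 arrays 0 were at that threshold. Spib, a transcription factor of plasmacytoid and B cells, had 10.67 ± 0.53 in tumour arrays and 11.22 ± 0.33 in Matrigel arrays. Bst2, which encodes the PDCA-1 antigen and is induced by interferon, differed by -0.54.

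**Figure D3:**
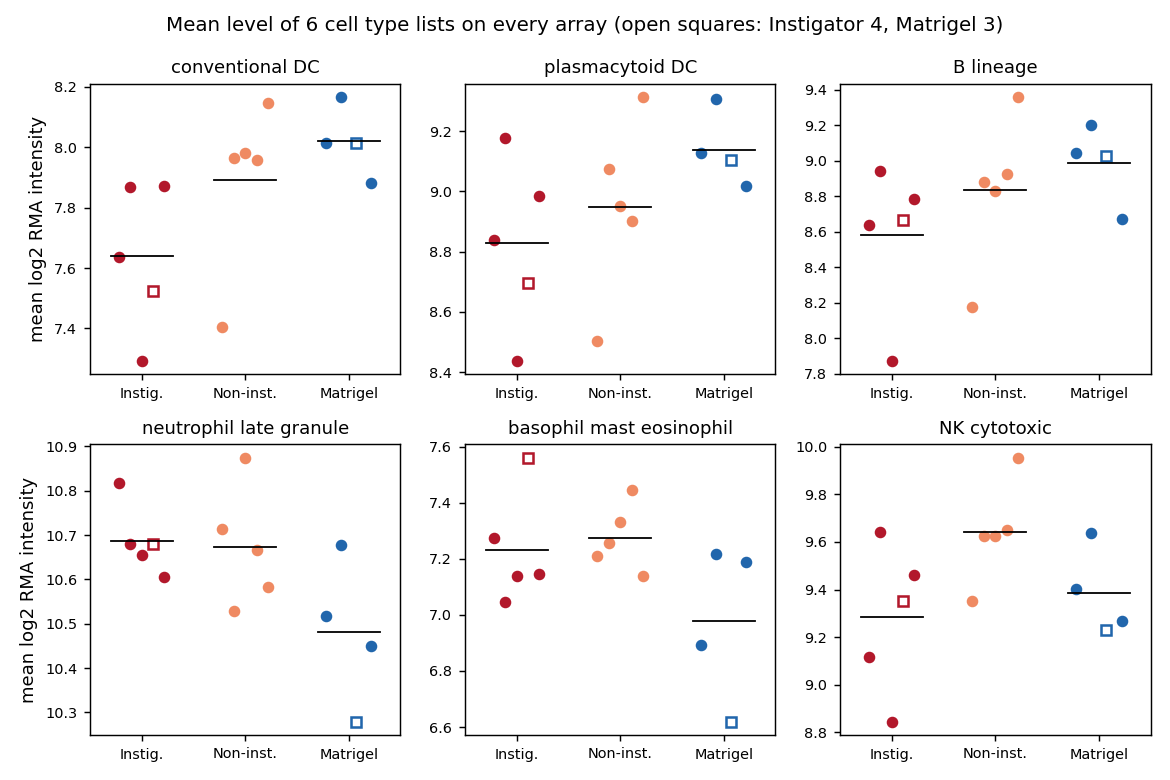
Mean log2 RMA intensity of 6 cell type lists on each Instigator, Non-instigator and Matrigel array, with a line at each group's mean and open squares for Instigator 4 and Matrigel 3. Tumour and Matrigel arrays overlap in all 6 lists, and Instigator 3 and Non-instigator 1 are the lowest arrays for both dendritic cell lists and for the B lineage list.

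Type I interferon genes, a list that shares Bst2 and Irf7 with the plasmacytoid one, gave 7 higher and 10 lower of 17. That is near the share over all genes, of which 42% were higher. Their median was -0.10, and 5 were at an unadjusted p under 0.05, all lower, beside 2.97% of all genes lower at it. Usp18, which removes the ubiquitin-like protein ISG15, had 6.78 ± 0.43 in tumour arrays and 7.38 ± 0.41 in Matrigel arrays. Ifit1, an interferon-induced RNA-binding protein, differed by -0.39. Without the 2 arrays 14 of 17 were lower, with a median of -0.07 and none at an unadjusted p under 0.05. In that setting 56.8% of all genes were higher, with a median of 0.01. T cell genes gave 7 higher and 11 lower of 18 with all arrays, also near the 42% of all genes that were higher, with a median of -0.09. Cd4, the helper cell co-receptor, differed by -0.35 and by -0.18 without the 2 arrays. A second Cd4 probe set differed by -0.02 with all arrays. NK and cytotoxic genes gave 10 higher of 14 with a median of 0.10, and without the 2 arrays 11 of 14 with a median of 0.03. Klra8, an activating receptor of NK cells, differed by 0.34 and by 0.20 without the 2.

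Lists of growth differed little, beside 42% of all genes higher and 2.05% higher at an unadjusted p under 0.05. DNA replication genes gave 21 higher and 9 lower of 30, with a median of 0.09, and the 4 at an unadjusted p under 0.05 were all higher. Without the 2 arrays 24 were higher, beside 56.8% of all genes, with a median of 0.07 and 1 at that threshold. Pole, which encodes the large subunit of the leading-strand polymerase, read from 7.87 through 8.28 to 8.89 on tumour arrays, and 8.05, 7.57, 7.70 and 7.75 on Matrigel arrays 1 to 4. There 8 of 10 tumour arrays lay above Matrigel, and the difference was 0.53 (standard error 0.15) and 0.44 without the 2 arrays. Cdt1, which loads the replicative helicase and whose promoter is printed above, had 10.40 ± 0.34 in tumour arrays and 9.93 ± 0.34 in Matrigel arrays, with other probe sets at 0.30 and 0.01. Its difference was 0.47 with all arrays and 0.30 without the 2. The E2F-type site in its window was shared by 13 of the 27 replication promoters found (48.1%), against 1 of 20 of mitosis genes (5%). Mitosis genes gave 11 higher and 11 lower of 22, with a median of 0.00. Aurkb, the mitotic kinase, differed by 0.35 with all arrays and 0.17 without the 2, and Cenpe, a kinetochore motor, by -0.46 with all arrays. Another Aurkb probe set differed by 0.08 with all arrays.

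Glycolysis and hypoxia genes gave 15 higher of 20, with a median of 0.14 and 3 at an unadjusted p under 0.05, all higher. Without the 2 arrays 16 of 20 were higher with a median of 0.10. Of all genes 42% were higher with all arrays and 56.8% without the 2. Hk1, the first enzyme of glucose use, differed by 0.43 with 9 of 10 tumour arrays above Matrigel, although its other probe set differed by -0.04. Pkm, pyruvate kinase, differed by 0.36, and so did Ldha, lactate dehydrogenase. Without the 2 arrays Hk1 differed by 0.24, Pkm by 0.28 and Ldha by 0.18. Respiratory chain genes gave 16 higher of 27 with a median of 0.01, and Cyc1, cytochrome c1, differed by 0.34 and by 0.14 without the 2. RNA polymerase III genes gave 7 higher of 13, and Polr3f, one of its subunits, differed by -0.37. Ribosomal protein genes gave 7 higher of 20 with a median of -0.03, and 10 of 20 without the 2 arrays with a median of 0.00. Rps9, Rps14 and Rps19, proteins of the small subunit, differed by -0.22, -0.20 and -0.16, and were within 0.03 of 0 without the 2 arrays.

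The other lists gave medians near that of all genes, of which 42% were higher. Stem and progenitor genes gave 6 higher of 15 with a median of -0.04, and Slamf1, a member of that list, differed by -0.42 on its brightest probe set. Other Slamf1 probe sets differed by -0.10 and -0.07, and by 0.02 and 0.04 without the 2 arrays. Erythroid genes gave 9 higher of 14 with a median of 0.06, and Tfrc, the transferrin receptor, differed by -0.18 on its brightest probe set. Other Tfrc probe sets differed by -0.45 and -0.95, and by -0.33 and -0.58 without the 2 arrays. Megakaryocyte and platelet genes gave 3 higher of 10 with a median of -0.11, and Pf4, platelet factor 4, differed by -0.93 (standard error 0.44) with 8 of 10 tumour arrays below Matrigel, and by -0.61 without the 2. Stromal and endothelial genes gave 7 higher of 20 with a median of -0.05, and Sparc, a matrix glycoprotein, differed by -0.51. Immediate early genes gave 12 higher and 12 lower of 24, and Fos, a subunit of AP-1, had 8.64 ± 1.06 in tumour arrays and 8.0 ± 0.27 in Matrigel arrays. Endoplasmic reticulum folding genes gave 7 higher of 20 with a median of -0.05, and genes of secreted and signalling factors 11 higher of 23 with a median of -0.03. No member of any of the 27 lists passed the adjusted test by brightest probe set in the comparison of all 14 arrays with equal weights.

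**Figure D4:**
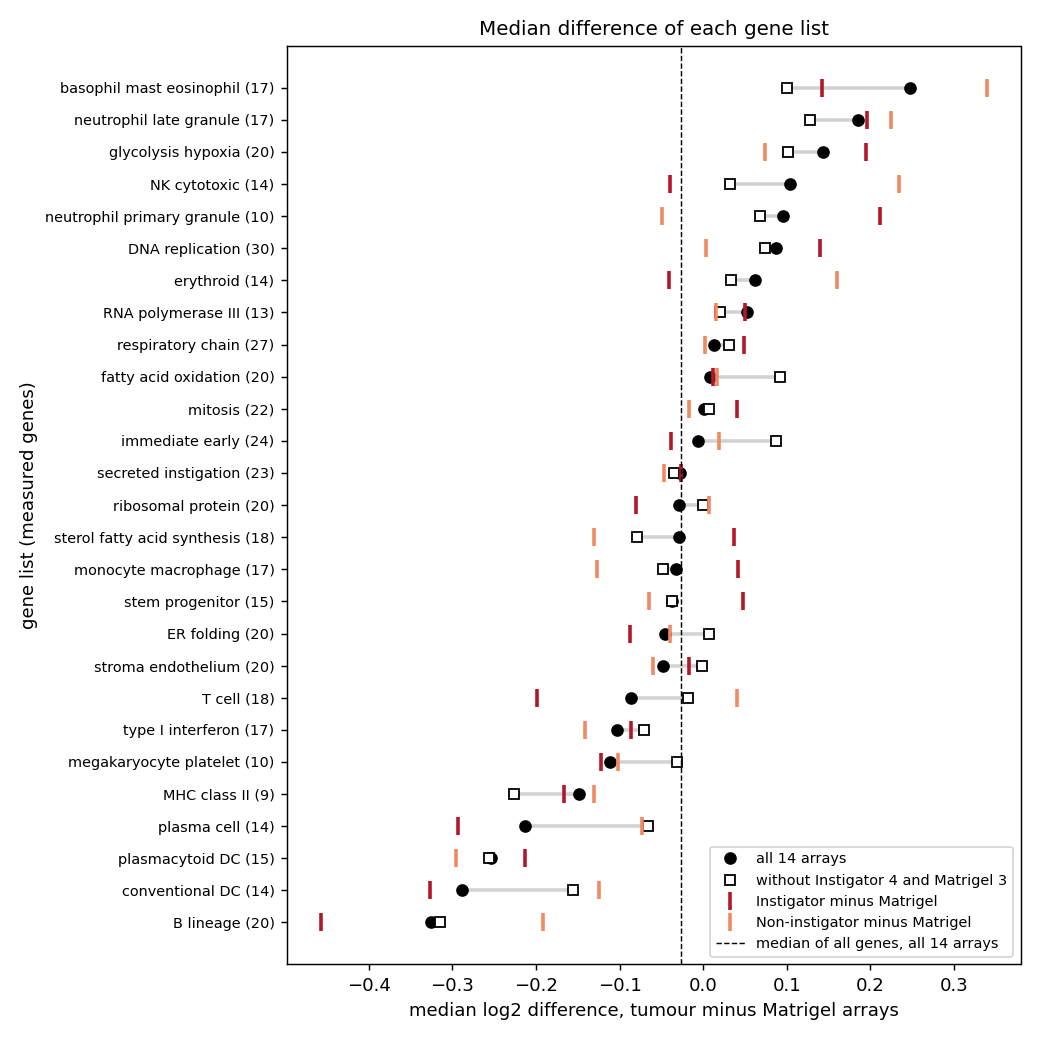
Median log2 difference, tumour minus Matrigel arrays, of 27 gene lists with the number of measured genes beside each name. Filled circles use all 14 arrays, open squares leave out Instigator 4 and Matrigel 3, bars give each tumour group against the shared Matrigel arrays, and the dashed line is the median of all genes at -0.03.

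The tumour groups were then compared with each other. Between Instigator and Non-instigator arrays 0 probe sets (0%) passed the adjusted test, with a smallest limma adjusted p of 0.813, and 661 genes (5.33%) were at an unadjusted p under 0.05. Counting Instigator 5 as Non-instigator, as its description has it, gave 2126 probe sets at that threshold instead of 1268, and still 0 called (smallest adjusted p 0.4812). Of the 622 genes at that threshold in the pooled comparison, 38 were also at it between the tumour groups. Lasp1, Prcp, Cdt1 and Pole were among those 38, with differences from Matrigel of 0.56, -0.67, 0.68 and 0.71 in Instigator arrays and 0.31, -0.29, 0.26 and 0.34 in Non-instigator arrays. Both tumour groups are set against the same 4 Matrigel arrays, so their values are not independent. The NK and cytotoxic median was -0.04 in Instigator arrays, with 3 of 14 higher, and 0.23 in Non-instigator arrays, with 14 of 14 higher. T cell genes had medians of -0.20 in Instigator arrays and 0.04 in Non-instigator arrays, and B lineage genes -0.46 in Instigator arrays and -0.19 in Non-instigator arrays. The difference between the tumour groups was not tested by list.

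Grn, the gene of the secreted growth factor granulin, did not separate tumour hosts from Matrigel hosts. Its brightest probe set had 10.53 ± 0.17 in tumour arrays and 10.46 ± 0.20 in Matrigel arrays (exact permutation test over all 1001 splits, two-sided p = 0.523). The 95% interval of the difference from limma was -0.15 to 0.29. The other 2 Grn probe sets differed by -0.08 and -0.06, with exact p of 0.621 and 0.671. Kit differed by -0.05 on its brighter probe set (exact p = 0.837) and by -0.29 on its dimmer one (exact p = 0.0579, limma 95% interval -0.53 to -0.04). Over these 5 tests the Benjamini-Hochberg adjusted p ran from 0.29 to 0.837, where the smallest p the design allows is 0.001998. On the brightest probe set Instigator arrays had Grn 0.19 above Matrigel and Non-instigator arrays 0.05 below. On the other 2 Grn probe sets Instigator arrays differed from Matrigel by 0.17 and 0.13, and Non-instigator arrays by -0.34 and -0.25. The pooled differences of these 2 sets thus average shifts in opposite directions. Between the tumour groups each had a limma adjusted p of 0.813.

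Single Matrigel arrays set how many probe sets pass the unadjusted threshold. The count was 429 when Matrigel 3 was left out, 203 higher and 226 lower, and 2170 when Matrigel 1 was, 532 higher and 1638 lower, against 1277 with all arrays. Leaving out any 1 tumour array gave 979 to 1502. With 4 Matrigel arrays, the number of arrays limits the precision of every difference above.

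**Figure D5:**
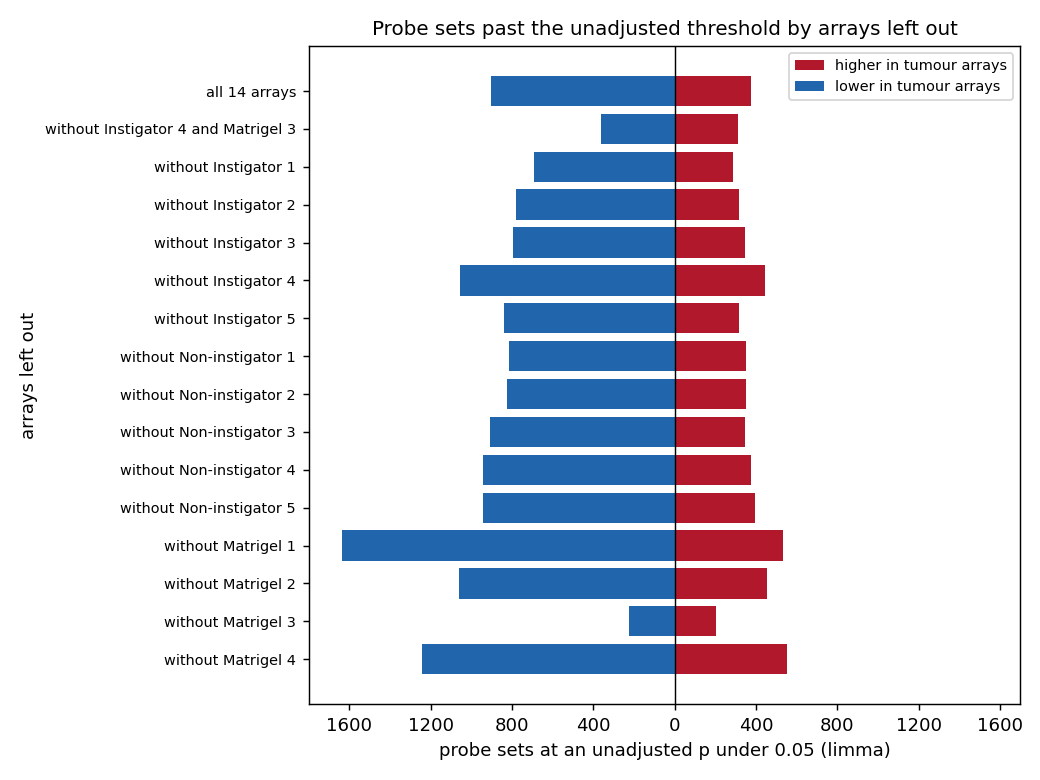
Number of probe sets at an unadjusted p under 0.05 in limma, higher in tumour arrays to the right and lower to the left, with all 14 arrays and with arrays left out. The count of lower probe sets runs from 226 without Matrigel 3 to 1638 without Matrigel 1, and is 903 with all arrays.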

How the data were processed

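Sca1-positive, cKit-negative bone marrow cells gave 14 arrays, and the table deposited by the authors holds linear intensity values of 22690 probe sets. The authors made these intensities with RMA (affy package, R 2.11.0), per the submitters' processing notes, which do not give its options. RMA as commonly run subtracts background, brings arrays to a common scale and combines each set's probes. The median intensity of the deposited arrays still ran from 119 to 145, and the main fit used these values without further scaling. No array was dropped or imputed, and no 2 of the 91 pairs of arrays were identical.

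Log2 of the deposited intensity was taken, 64 control probe sets were left out, and the remaining 22626 were fitted with limma 3.58.1 (lmFit and eBayes) in R 4.3.3 as 10 tumour against 4 Matrigel arrays, with Benjamini-Hochberg adjustment over all of them and a call at an adjusted p under 0.05. A fit with 3 groups gave the contrast between tumours. The fit was tested on simulated data. Figures were drawn with matplotlib 3.10.9.

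Platform annotation gave 1 symbol to 20380 probe sets, several to 691 and none to 1555, and a set with several was never named. This gave 12393 genes, of which 12377 were found in the GRCm38.p6 reference table. Probe sets ending in _s_at or _x_at, such as those of Cpt1a, Lasp1, Ifi202b, Chmp4b, Thtpa and Arap3, can match further transcripts. The array table names no genome build, and the printed windows are RefSeq's.

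Named were, by smallest p, the first 12 genes per direction, the first 8 per direction without Instigator 4 and Matrigel 3, up to 10 per direction with the widest gap between sides, up to 5 per list by absolute difference, Grn and Kit, any called list member, and the 4 per direction with the largest difference among the first 12 with a mean above 7. The text uses part of these. The 27 lists, 14 of cell type markers and 13 of processes, hold 543 genes, 466 of them measured. The members, lists and tests were chosen with earlier results of these data known, so a list's direction is no independent evidence.

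Titles number the arrays. Samples with the same number correlated from -0.20 to 0.27 in their deviations from group means, with 5 of 13 pairs above 0.1, so the numbers were not treated as pairs. Alternatives left out each array in turn and both that stand apart, and changed the model, scaling, filter, weights and gene summary.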

Additional observations from a re-analysis of the deposited data

Results flagged for a closer look

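The values below each stood apart from the rest of their side, by a gap to the nearest array that exceeds Dixon's 95% limit for 10 or 4 arrays. Of 306 sets of values looked at, 56 held such an array, where chance flags about 1 in 20, and 34 of the 56 fell on Instigator 4 and 12 on Matrigel 3. Values are log2 intensities by brightest probe set unless another is named.

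Instigator 4 was the highest tumour array for Nucb1 at 8.885, Lasp1 at 11.65, Zyx at 9.611, Ttc7b at 8.962, Chmp4b at 10.74, Zswim1 at 7.622, Zfp764 at 9.44, Tln1 at 10.91, Padi4 at 9.629, Alox15 at 9.794, Csf1r at 12.27, Cpt1a at 10.99, Hk1 at 8.8, Ndufv1 at 10.48, Polr3a at 9.927, Polr3d at 7.189 and the dimmest Cpt1a probe set at 8.666. It was the lowest tumour array for Net1 at 6.258, Prps2 at 7.591, Anp32e at 11.49, Gadd45b at 7.23, Pdia4 at 6.245, Cd48 at 9.367, Cenpe at 4.926, Etfb at 9.501, Rps9 at 10.81, Rps14 at 10.6, Rps19 at 11.46, Ndufa4 at 9.095 and the second Scd2 probe set at 6.35. Its mean over a whole list was the highest tumour value for monocyte and macrophage genes at 8.908 and the lowest for ribosomal protein genes at 11.53. Its 5′ minus 3′ difference was -3.412 for beta-actin and -4.027 for Gapdh.

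Matrigel 3 was the highest Matrigel array for Zeb2 at 6.429, Rfx3 at 4.972, Krtap6-2 at 5.253, Gadd45b at 9.741, Hgd at 5.644, Igll1 at 10.75 and Polr3d at 7.539. It was the lowest for Vps9d1 at 7.022, Cpt1a at 8.06, Cyc1 at 8.823 and Tnfrsf1b at 7.59. Its median log2 intensity of 7.184 was above those of the other 3 Matrigel arrays.

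Other arrays stood apart in single genes. Instigator 3 was the highest of its side for Angpt1 at 5.547. Instigator 3 was the lowest of its side for Hmox1 at 6.837. Instigator 5 was the lowest of its side for Hgd at 4.744. Matrigel 1 was the lowest of its side for Rps14 at 12.14. Matrigel 2 was the highest of its side for Spib at 11.71. Non-instigator 3 was the highest of its side for Slc25a20 at 10.04 and Vhl at 5.753. Non-instigator 5 was the highest of its side for Ppbp at 6.206. Non-instigator 5 had the highest tumour mean for megakaryocyte and platelet genes at 6.293, and Non-instigator 4 the lowest for sterol and fatty acid synthesis genes at 8.417.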

How the results depend on the processing

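The number of probe sets called was 0 with all arrays, and also with a 3-group model, an intensity trend, quantile normalization, median centring, the brighter part of the probe sets, or gene means. It was 1 without Instigator 4 and Matrigel 3, 2 with array weights, and 0 to 1 when each array was left out in turn, the 1 being Scd2 without Instigator 4. With the number in the titles as a replicate block the count was 0, with 423 higher and 1160 lower at an unadjusted p under 0.05, and the block changed no call. Probe sets higher at that threshold, 374 in the main fit, numbered 721 after quantile normalization, 903 after centring, 225 in the brighter part and 216 by gene mean, and 203 to 553 when each array was left out. Lower ones, 903 in the main fit, numbered 363 without the 2 arrays, 430 after centring, 370 in the brighter part, 458 by gene mean, and 226 to 1638 when each array was left out. Tumour arrays lay wholly above Matrigel on 70 probe sets without the 2 arrays, 41 after quantile normalization and 46 after centring, and on 22 to 87 when each array was left out. They lay wholly below on 50 without the 2 arrays and 17 after centring, and on 30 to 195 when each array was left out. With fewer arrays a random split separates the sides more often, so counts with arrays left out do not compare directly with those of all arrays. The cause of these shifts was not tested, beyond the smaller number of probe sets or arrays in some.

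Of 123 gene differences, 9 genes turned sign under some alternative, with main differences from -0.30 for Sel1l to 0.26 for Tnfrsf1b. Without the 2 arrays Grn was -0.0373, Etfb 0.0050, Rps19 0.00042 and Tnfrsf1b -0.0094. Kit was 0.019 with the replicate block, 0.020 after quantile normalization and 0.017 after centring, Grn -0.025 by gene mean and Sel1l 0.024 with array weights. When each array was left out, Kit ran from -0.163 to 0.129, Klrk1 from -0.492 to 0.0725, Cebpa from -0.0210 to 0.205, Cdc20 from -0.00046 to 0.369, Grn from -0.0191 to 0.138 and Tnfrsf1b from -0.0277 to 0.372. Between the tumour groups 0 probe sets were called under every alternative run, with a smallest adjusted p of 0.25 to 0.9825. The small number of Matrigel arrays limits precision, and dim probe sets may lie at background.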
